A study of Mus musculus with 10 samples.

Results

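The 10 genes described here encode the main hepatocyte carriers of bile acids, bilirubin and drug conjugates, and they were found by symbol among the 59408 gene models of a liver RNA sequencing table. Uptake from blood is represented by Slc10a1, Slco1a1, Slco1a4, Slco1b2 and Slco2b1, export into bile by Abcb11, Abcb4 and Abcc2, and export back into blood by Abcc3 and Abcc4. Each symbol matched 1 gene model, and all 10 passed the filter on low values. The livers came from wild-type C57Bl/6 mice and were all collected at day 35, 1 library per mouse. The 4 controls (numbered 1 to 4) were untreated. The 3 mice of the primary biliary cholangitis (PBC) model, numbered 7 to 9, were immunised intraperitoneally on day 0 with 100 µg of 2-octynoic acid coupled to bovine serum albumin (2OA-BSA) in complete Freund's adjuvant. They were boosted with 2OA-BSA in incomplete adjuvant on days 14 and 28, and an intravenous dose of 2 µg of α-galactosylceramide went with the injections of days 0 and 14. The 3 mice of the primary sclerosing cholangitis (PSC) model, numbered 11, 13 and 14, received 3,5-diethoxycarbonyl-1,4-dihydrocollidine (DDC) at 0.089% of the diet. It was given for 2 weeks, paused for 1 week of regular food and given again for 1 week. By that schedule the DDC diet ended on day 28, before collection. No control received adjuvant, BSA conjugate or α-galactosylceramide, so the PBC comparison cannot tell the antigen from its adjuvants.

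Hepatocytes take up bile acids from sinusoidal blood through the sodium-dependent carrier NTCP (Slc10a1) and the sodium-independent organic anion transporting polypeptides (Slco genes). They secrete bile salts into the canaliculus through the bile salt export pump (Abcb11), phosphatidylcholine through the floppase MDR2 (Abcb4) and glucuronide, glutathione and sulfate conjugates through MRP2 (Abcc2). In cholestasis, when bile flow is impaired, MRP3 (Abcc3), MRP4 (Abcc4) and the heterodimer of Slc51a and Slc51b can return bile acids and conjugates to blood. These genes are known targets of nuclear receptors such as FXR (Nr1h4), CAR (Nr1i3) and PXR (Nr1i2) and of the oxidant-responsive factor NRF2 (Nfe2l2).

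Values are reads per gene model after the authors' DESeq2 normalisation, called normalised reads below. The libraries held 38.3 to 95.4 M (mega) reads. Xist was detected in every library and 4 Y-linked genes had 0 reads in all of them, while the labels give no sex. Mitochondrial transcripts took 13.7% of reads in control 2 and at most 8.67% in the others. Control 4 stood apart in transcripts of the circadian clock. For 14 of 16 clock genes, a list chosen after values were seen, it lay outside the range of the other 3 controls, and for 11 it lay outside all other 9 livers. The clock output gene Dbp was at 8406 normalised reads in control 4 and at 35.9 to 1265 in the other controls, and the clock activator Arntl was at 26.4 against 238 to 827. The sources used here do not give the hour of collection. The 14 hepatocyte markers found summed to 10.01 to 11.6 M normalised reads in controls, 9.88 to 14.6 M in PBC and 6.84 to 8.52 M in PSC, and none was at 0 in every liver.

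In the PSC model most uptake carriers were lower than in controls and 2 exporters were higher, while in the PBC model 1 uptake carrier was lower and 1 exporter was higher. A gene was called at a Benjamini-Hochberg adjusted p of at most 0.05 in limma, over 18390 genes tested on log2(normalised reads + 1). In PBC against control, 2 of 10 transporters were called, Abcc3 higher and Slco1b2 lower, where 9.94% of all genes tested were called (7.6% higher and 2.34% lower). There edgeR called 1 of the 10 and 8.54% of all genes, and DESeq2 3 and 14.0%. In PSC against control, 6 of 10 were called, Abcb4 and Abcc3 higher and Slco1a1, Slco1a4, Slco1b2 and Slco2b1 lower, where 14.7% of all genes were called (8.25% higher and 6.48% lower). There edgeR called 6 of the 10 and 14.2% of all genes, and DESeq2 7 and 20.7%. The median log2 fold change of the 10 was -0.07 in PBC and -0.63 in PSC, against 0.01 and 0.06 over all genes tested. The groups did not overlap for 2 of the 10 genes in PBC against control and for 8 in PSC against control, where 19.6% and 31.5% of all genes did not overlap. Both comparisons use the same 4 controls. Bulk values cannot tell fewer hepatocytes from less RNA per hepatocyte.

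**Figure D1:**
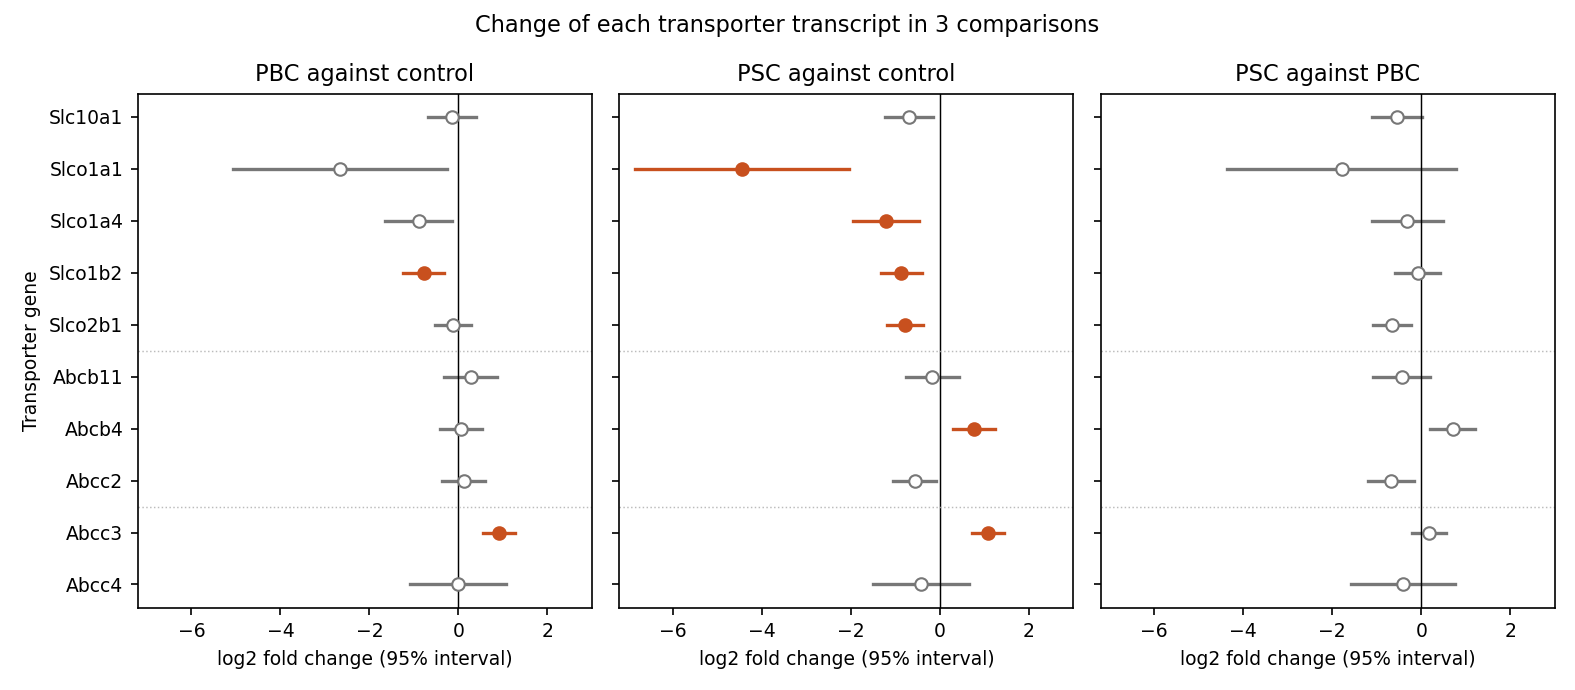
Log2 fold change (x axis, points) with its 95% limma interval (lines) for each of the 10 transporter genes (y axis) in 3 comparisons; filled orange points passed the adjusted p of 0.05 and open grey points did not, and dotted lines separate uptake, canalicular and basolateral genes. Filled points stand left of 0 for 1 uptake gene in PBC against control and for 4 in PSC against control, and no point is filled in PSC against PBC.

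Per kilobase of annotated exon, Slc10a1 was the most abundant of the 10 transcripts in every group. In controls its level was 25960.2 ± 5284 normalised reads per kb (SD, n = 4), followed by Slco1b2 at 11610.2 ± 1501, Abcb11 at 4739 ± 1802 and Abcb4 at 3699 ± 876. The SD ranges of Abcb11 and Abcb4 overlapped in controls. Abcc3 at 1261 ± 153, Slco1a4 at 1202 ± 602, Abcc2 at 1193 ± 273, Slco1a1 at 949 ± 648 and Slco2b1 at 854 ± 156 per kb followed, and neighbours in this order did not differ beyond their spread. Abcc4 was the lowest at 42.0 ± 33.3 per kb. In PSC livers Abcb4 stood above Abcb11, at 6191 ± 779 against 3977 ± 336 per kb (SD, n = 3), and Abcc3 reached 2663 ± 159 per kb. Slco1a1 at 24.1 ± 5.85 and Abcc4 at 26.1 ± 1.51 per kb were the lowest there and did not differ beyond their spread. Per kb of coding sequence their order turned, at 48.5 ± 11.8 for Slco1a1 and 37.6 ± 2.18 for Abcc4.

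Slco1b2, Slco1a4 and Slco1a1 lie within 1 cluster of organic anion carrier genes on chromosome 6 of mm10, and all 3 were lower in PSC. Slco1b2, the mouse counterpart of the human hepatic OATP1B carriers, spans chr6:141629518-141686646 on the plus strand. Slco1a4 (Oatp1a4) at chr6:141805440-141856220 and Slco1a1 (Oatp1a1) at chr6:141907281-141946962 lie on the minus strand and share sequence. Of the windows of 75 bases, the read length, in their transcripts, 1.76% of those of Slco1a4 and 1.51% of those of Slco1a1 also occur in another gene. The 250 bases before each start in RefSeq (GRCm38.p6, 5′ to 3′ along the gene) are shown because these neighbours were lower together. Capitals mark the nuclear receptor half-site AGGTCA on either strand (TGACCT on the opposite one).

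Slco1b2, plus strand, chr6:141629268-141629517: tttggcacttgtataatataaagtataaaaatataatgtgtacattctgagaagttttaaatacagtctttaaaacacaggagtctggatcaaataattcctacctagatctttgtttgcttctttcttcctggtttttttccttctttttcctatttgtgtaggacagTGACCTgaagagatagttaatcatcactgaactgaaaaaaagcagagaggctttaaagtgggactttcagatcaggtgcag
Slco1a4, minus strand, chr6:141856221-141856470: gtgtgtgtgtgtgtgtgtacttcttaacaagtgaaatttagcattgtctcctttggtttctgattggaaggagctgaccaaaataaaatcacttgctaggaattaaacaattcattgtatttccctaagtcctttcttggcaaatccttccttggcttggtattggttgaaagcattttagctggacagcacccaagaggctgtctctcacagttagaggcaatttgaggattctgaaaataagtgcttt
Slco1a1, minus strand, chr6:141946963-141947212: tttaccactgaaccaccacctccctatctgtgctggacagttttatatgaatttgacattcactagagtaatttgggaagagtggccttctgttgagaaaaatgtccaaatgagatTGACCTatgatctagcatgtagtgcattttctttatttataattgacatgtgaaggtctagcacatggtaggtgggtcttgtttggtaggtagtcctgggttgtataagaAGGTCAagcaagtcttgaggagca

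Counted back from the start, the window of Slco1b2 holds the half-site at -81 to -76, and that of Slco1a1 holds it at -134 to -129 and at -24 to -19. No match lies in the window of Slco1a4. Over 32851 RefSeq promoter windows of this length, 14.0% hold at least 1 match. A match is a description of the letters and not a measured binding site.

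Slco1b2 was lower in both models. It was counted at 39796, 33987, 34999 and 44798 normalised reads in controls 1 to 4, at 17758, 30783 and 20026 in PBC 7 to 9, and at 18095, 23430.0 and 21671 in PSC 11, 13 and 14. Every liver of both models lay under every control, with PBC 8 nearest to the controls. Slco1b2 fell by 0.78 on the log2 scale in PBC (SE 0.22, adjusted p = 0.0381) and by 0.87 in PSC (SE 0.22, adjusted p = 0.0192). The PBC call of Slco1b2 ended without control 1 (adjusted p = 0.0898), control 4 (0.0751), PBC 7 (0.16), PBC 9 (0.151), PSC 11 (0.0501), PSC 13 (0.0582) or PSC 14 (0.0618), and with edgeR (0.0529), only the compared groups (0.0943), no filter (0.068) or equal library totals (0.0557). Its PSC call ended without control 1 (0.0527), PSC 11 (0.0871) or PSC 14 (0.0748).

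Slco1a4, a carrier of bile acids and many drugs, was lower in PSC and did not pass the test in PBC. It was counted at 4415, 2594, 3515 and 7861 normalised reads in controls, 1609, 3427 and 2108 in PBC, and 1391, 2119 and 2056 in PSC. Control 4 was the highest of all 10 livers, all PSC livers lay under all controls, and PBC 8 lay within the control range. The log2 fold change was -1.21 in PSC (SE 0.34, adjusted p = 0.0333) and -0.90 in PBC (SE 0.34, adjusted p = 0.114). The PSC call of Slco1a4 ended without control 1 (adjusted p = 0.0734), control 4 (0.064, log2 fold change -0.91), PSC 11 (0.135), PSC 13 (0.0655) or PSC 14 (0.0884) and with equal library totals (0.0616). Its PBC difference passed without PBC 8 (0.0383), with DESeq2 (0.0435) and with library quality weights (0.0112).

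Slco1a1 spanned the widest range of the 10 genes. Its normalised reads were 6374, 4304, 4562 and 159.7 in controls 1 to 4, then 1296, 68.5 and 417 in PBC 7 to 9, and 125, 80.9 and 87.1 in PSC 11, 13 and 14. Control 4 lay far under the other controls and close to the PSC livers, and PBC 8 was the lowest of all. Slco1a1 fell by 4.45 on the log2 scale in PSC (SE 1.12, 95% interval -6.86 to -2.04, adjusted p = 0.0193), with all PSC livers under control 4. The PBC value was -2.66 (SE 1.12, 95% interval -5.07 to -0.25, adjusted p = 0.147), with PBC 8 under control 4 and PBC 7 and 9 above it. Without control 4, the changes of Slco1a1 were -5.69 in PSC (adjusted p = 0.000516) and -3.90 in PBC (adjusted p = 0.0061), so that library decided the PBC call and moved the PSC fold over 1.5 times. The PSC fold also moved over 1.5 times with edgeR (-5.32), DESeq2 (-5.32) and library quality weights (-5.45), and the PBC difference passed with the weights (0.0495). The PSC call ended without control 1 (0.0552), control 2 (0.051), PSC 11 (0.0547), PSC 13 (0.0613) or PSC 14 (0.0771).

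Slco2b1, a broad organic anion carrier at chr7:99657804-99711341 on the minus strand, was lower in PSC. It was counted at 4769, 3889, 3859.9 and 5602 normalised reads in controls, at 3658, 4759 and 4001 in PBC, and at 2640.3, 2688 and 2465 in PSC. The PSC livers were tightly grouped under every other liver, while PBC livers lay among the controls or just under them. Slco2b1 fell by 0.79 on the log2 scale in PSC (SE 0.18, adjusted p = 0.0139), and the PBC value was -0.12 (95% interval -0.52 to 0.28, adjusted p = 0.719). The PSC call of Slco2b1 ended without PSC 14 (adjusted p = 0.0785).

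Slc10a1, which encodes NTCP, the main sodium-dependent bile acid carrier, lies at chr12:80953185-80968705 on the minus strand. Its normalised reads were 57367, 50162, 47468 and 73349 in controls, 69888, 34403 and 54732 in PBC, and 35776, 32628 and 36161 in PSC. All PSC livers lay under all controls, and PBC 8 alone among PBC livers was as low as the PSC livers. The PSC difference was -0.69 on the log2 scale (SE 0.25, 95% interval -1.23 to -0.16) and did not pass (adjusted p = 0.0761). It passed without PBC 8 (adjusted p = 0.0273), with DESeq2 (0.0287), with only the compared groups (0.0365), with equal library totals (0.0461) and with quality weights (0.00196). The PBC value of Slc10a1 was -0.15 (95% interval -0.68 to 0.39, adjusted p = 0.751).

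**Figure D2:**
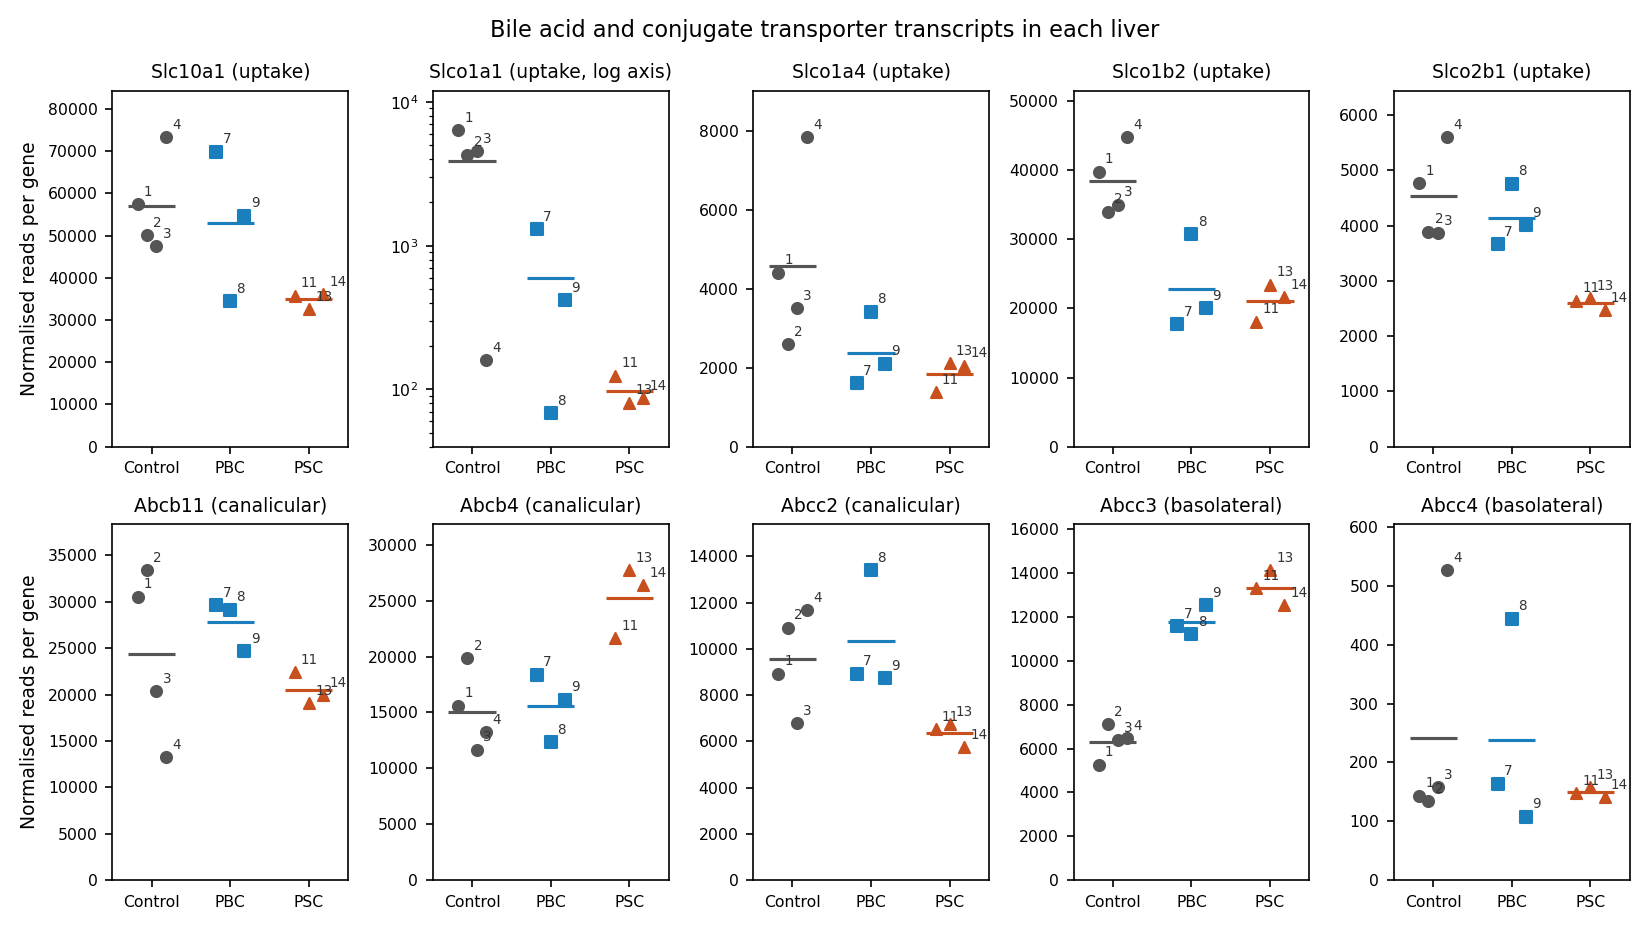
Normalised reads per gene (y axes, starting at 0 except for the log axis of Slco1a1) of the 10 transporters in each liver, grouped on the x axis as control, PBC and PSC; numbers are mouse numbers and bars are group means. The PSC livers lie under all controls for the 5 uptake genes and Abcc2 and above them for Abcb4 and Abcc3, and control 4 and PBC 8 stand apart from their groups in Slco1a1 and Abcc4.

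Slc10a1 and then Slco1b2 took the largest shares of uptake transcripts in every liver. Of the summed reads per kb of the 5 genes, Slc10a1 took 61.8 to 66.6% in controls, 58.5 to 82.4% in PBC and 64.5 to 71.9% in PSC. Slco1b2 took 27.1 to 30.3% in controls and 24.2 to 30.8% in PSC. In PBC its share was 13.9% in PBC 7 and 18.7% in PBC 9, both under every control, and 34.8% in PBC 8, above every control. Slco1a1 took 2.98 to 3.76% in controls 1 to 3, 0.0786% in control 4 and 0.0867 to 0.136% in PSC. In PBC 7 to 9 its share was 0.828, 0.0631 and 0.318%. The ratio of Slco1a4 to Slco1a1 per kb was 0.639 to 0.817 in controls 1 to 3 and 52.2 in control 4. That ratio was 1.32, 53.1 and 5.36 in PBC 7 to 9 and 11.8 to 27.8 in PSC. These shares and ratios are descriptions with no test.

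**Figure D3:**
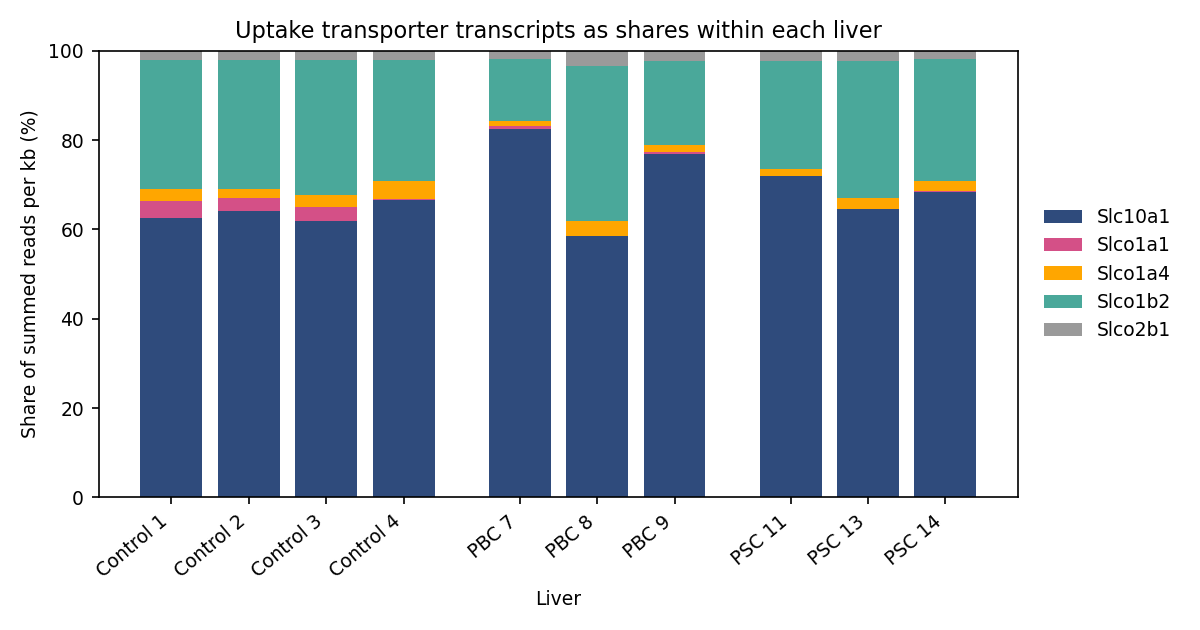
Share (y axis, percent) of the summed normalised reads per kb taken by each of 5 uptake genes in each liver (x axis). Slc10a1 holds over 58% in all livers, and the Slco1a1 layer is visible in controls 1 to 3 and nearly absent in control 4, PBC 8 and the PSC livers.

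Abcb11, which encodes the bile salt export pump, showed no difference between groups that passed the test, and its values varied with those of some clock transcripts across livers. The gene lies at chr2:69238289-69342619 on the minus strand. Its normalised reads were 30524, 33365, 20395 and 13260.1 in controls 1 to 4, 29655, 29139 and 24643 in PBC 7 to 9, and 22397, 19071 and 19923 in PSC 11, 13 and 14. The controls spread more widely than both models together, with control 4 the lowest and control 2 the highest of all livers. The log2 fold change of Abcb11 was 0.27 in PBC (SE 0.28, 95% interval -0.32 to 0.87, adjusted p = 0.563) and -0.17 in PSC (SE 0.28, 95% interval -0.76 to 0.43, adjusted p = 0.727). Over the 10 livers, Pearson's r of log2 values of Abcb11 was 0.92 with Arntl and -0.94 with Dbp (Spearman's rho 0.95 and -0.89). With group means removed the coefficients were 0.96 and -0.96. Arntl and Dbp had the strongest positive and negative coefficients of the 16 clock genes. For 6 of the 16, Abcb11 had an r between -0.5 and 0.5, among them Cry2 (-0.10) and Hlf (-0.27). Other transporters followed other clock genes as closely, with r of 0.95 between Slco2b1 and Cry2 and 0.93 between Slco1a4 and Tef. Without the 2 livers farthest from the median of each clock gene, r was 0.90 for Arntl and -0.83 for Dbp over 8 livers. The points share a normalisation, the clock genes were examined after their values were seen, and the part of the clock in the Abcb11 values was not tested.

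**Figure D4:**
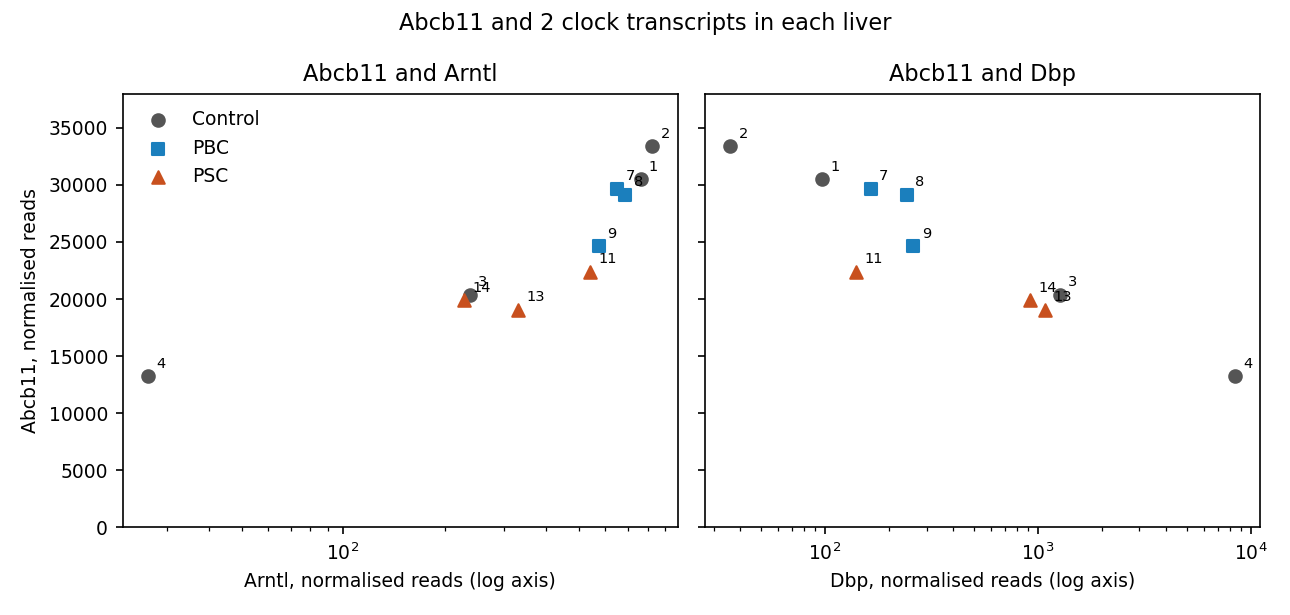
Normalised reads of Abcb11 (y axis, from 0) against those of Arntl (left) and Dbp (right, both x axes log) in each of 10 livers; shapes and colours give the group and numbers the mouse. Abcb11 is highest where Arntl is high and Dbp low, as in control 2, and lowest in control 4, where Arntl is lowest and Dbp highest.

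The sequence before the Abcb11 start is printed because this gene is the best known FXR target of the canalicular set and did not pass in either model. Capitals again mark the half-site AGGTCA, here on the opposite strand at -56 to -51 from the start. In all, 5 of 13 windows of the 9 transporters with a RefSeq window held it.

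Abcb11, minus strand, chr2:69342617-69342866: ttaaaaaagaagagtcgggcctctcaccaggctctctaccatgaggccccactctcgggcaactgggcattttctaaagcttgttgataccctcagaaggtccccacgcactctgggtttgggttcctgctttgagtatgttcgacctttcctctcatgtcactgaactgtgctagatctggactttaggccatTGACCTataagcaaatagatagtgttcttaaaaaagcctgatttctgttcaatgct

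Abcb4, which encodes the phosphatidylcholine floppase that protects bile duct cells from free bile salts, was higher in PSC. It lies at chr5:8893717-8959226 on the plus strand, and 60 of the 4005 windows of 75 bases in its transcript also occur in Abcb1a or Abcb1b. Abcb4 was counted at 15596, 19868, 11661 and 13224 normalised reads in controls, at 18375, 12325 and 16156 in PBC, and at 21664, 27705 and 26388 in PSC. All PSC livers lay above all other livers, and the PBC livers lay within the control range. The PSC change was 1.70-fold, 0.76 on the log2 scale (SE 0.22, adjusted p = 0.0341), and the PBC value was 0.06 (95% interval -0.41 to 0.53, adjusted p = 0.895). The PSC call of Abcb4 ended without control 1 (adjusted p = 0.0667), control 3 (0.0577), control 4 (0.069), PSC 11 (0.0582), PSC 13 (0.125) or PSC 14 (0.135) and with no filter (0.0542).

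Abcc2, the exporter of bilirubin glucuronides and other conjugates, lies at chr19:43782308-43838218 on the plus strand. Controls held 8921, 10916, 6787 and 11672 normalised reads of Abcc2, against 8932, 13388 and 8735 in PBC and 6541, 6754 and 5753 in PSC. The PSC livers lay under all other livers, though PSC 13 and control 3 were nearly equal. The PSC difference of Abcc2 was -0.57 on the log2 scale (SE 0.22, 95% interval -1.05 to -0.08) and did not pass (adjusted p = 0.106). It passed without control 3 (0.0329) and with quality weights (0.0078). The PBC value of Abcc2 was 0.11 (95% interval -0.37 to 0.59, adjusted p = 0.785).

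Abcc3, which encodes MRP3, a basolateral exporter of glucuronides and bile acids, was higher in both models. It lies at chr11:94343295-94392997 on the minus strand. Its normalised reads were 5275, 7124, 6371 and 6479 in controls 1 to 4, 11591, 11226 and 12548 in PBC 7 to 9, and 13331, 14127 and 12531 in PSC 11, 13 and 14. Each model liver lay well above each control, and the spread within every group was small beside that gap. Abcc3 rose 1.88-fold in PBC (log2 0.91, SE 0.17, adjusted p = 0.0042) and 2.12-fold in PSC (log2 1.08, SE 0.17, adjusted p = 0.00118). Both calls were present in all 20 alternative settings, among them those without any 1 library. MRP3 is also known from bile duct cells. The 14 cholangiocyte markers summed to 12117 to 18555 normalised reads in controls, 14836 to 19825 in PBC and 59848 to 101550.0 in PSC, with 4 called higher in PBC and 9 in PSC and none of the 14 at 0 in every liver. The PBC and control ranges of that sum overlapped, and the median log2 fold change of the 14 markers was 0.84 in PBC and 2.04 in PSC. The part of bile duct cells in the Abcc3 values of both models and in the PSC values of Abcb4 was not tested.

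Abcc4, which encodes MRP4, an exporter of bile acids together with glutathione, did not pass the test in either model. The gene lies at chr14:118482692-118706219 on the minus strand. Its normalised reads were 144, 135, 158 and 526 in controls, 164, 444.5 and 108 in PBC, and 148, 159 and 141 in PSC. Control 4 and PBC 8 were several times higher than the remaining 8 livers, which lay close together. The log2 fold change of Abcc4 was -0.01 in PBC (SE 0.50, 95% interval -1.10 to 1.08, adjusted p = 0.992) and -0.42 in PSC (SE 0.50, 95% interval -1.51 to 0.66, adjusted p = 0.614). Without control 4 the values of Abcc4 were 0.45 in PBC (adjusted p = 0.543) and 0.04 in PSC (0.968). The 250 bases before its start are shown because Abcc4 is a known NRF2 target and its 2 high livers include the one that stands apart in clock genes. Capitals mark, in order, the E-box CACGTG (-205 to -200 from the start) and the core of the antioxidant response element, TGACNNNGC, on the opposite strand (-25 to -17).

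Abcc4, minus strand, chr14:118706220-118706469: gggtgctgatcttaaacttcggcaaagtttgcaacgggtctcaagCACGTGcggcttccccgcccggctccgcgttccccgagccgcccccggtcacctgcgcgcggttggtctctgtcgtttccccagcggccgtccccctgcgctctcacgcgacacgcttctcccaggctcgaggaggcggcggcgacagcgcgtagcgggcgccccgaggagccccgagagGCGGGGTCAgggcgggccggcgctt

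The core of the antioxidant response element is present in 10.2% and the E-box in 6.02% of the 32851 promoter windows. Of the 13 windows of the transporters, 3 held the former and 1 the latter, and no 2 matches overlapped. A further search for the D-box TTATGNAA, bound by Dbp and related factors, matched none of the 13 windows and 3.07% of all windows.

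Within a liver, Abcc3 outweighed Abcc2 most in PSC. The ratio of Abcc3 to Abcc2 per kb was 0.948, 1.05, 1.51 and 0.890 in controls, 2.08, 1.34 and 2.30 in PBC, and 3.27, 3.35 and 3.49 in PSC. Every PSC liver was above every other liver, and PBC 8 lay within the control range. The ratio of Abcb4 to Abcb11 per kb was 0.645, 0.751, 0.721 and 1.26 in controls, 0.782, 0.534 and 0.827 in PBC, and 1.22, 1.83 and 1.67 in PSC. Here control 4 lay within the PSC range. The ratio of Abcc4 to Abcb11 was at most 0.0137 per kb in every liver except control 4, where it was 0.0356. These ratios have no test.

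**Figure D5:**
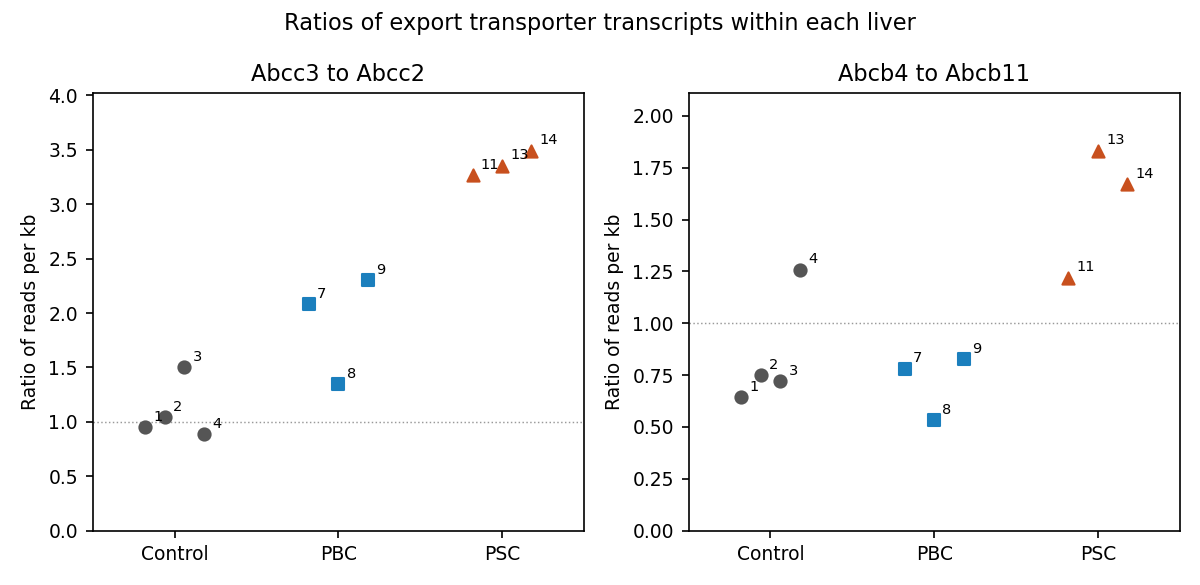
Ratio of normalised reads per kb (y axes, from 0) of Abcc3 to Abcc2 (left) and of Abcb4 to Abcb11 (right) in each liver, by group on the x axis; numbers are mouse numbers and the dotted line marks a ratio of 1. The PSC livers stand above the rest for Abcc3 to Abcc2, and control 4 overlaps them for Abcb4 to Abcb11.

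Compared directly, PSC and PBC livers differed in none of the 10 transporters by limma (0 of 10, where 2.24% of all genes were called). An unadjusted p under 0.05 was found for 3 of the 10 and for 18.5% of all genes, edgeR called 0 of the 10 (2.26% of all genes) and DESeq2 called 1 (6.6% of all genes), Slco2b1 (adjusted p = 0.0459). Slco2b1 was lower in PSC by 0.66 on the log2 scale (95% interval -1.09 to -0.24, adjusted p = 0.106 in limma) and Abcc2 by 0.68 (-1.19 to -0.17, adjusted p = 0.157). Abcb4 was 0.70 higher on the log2 scale (0.20 to 1.21, adjusted p = 0.139). The 3 PSC and 3 PBC livers did not overlap for Slco2b1, Abcb11, Abcc2 and Abcb4, 4 of 10 genes against 27.2% of all genes. With quality weights Slco2b1 (0.0408), Abcb4 (0.0499) and Slc10a1 (0.0344) passed. The difference in Abcc3 was 0.18 (-0.20 to 0.56) and that in Slco1b2 was -0.08 (-0.58 to 0.42), so the intervals allow ratios of PSC to PBC from 0.868 to 1.47 for Abcc3 and from 0.667 to 1.33 for Slco1b2.

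Of 22 other hepatobiliary transporters, 21 were tested, with 2 higher and 0 lower in PBC, and 2 higher and 4 lower in PSC (median log2 fold change 0.29 and 0.11). The called share of these 21 was 9.52% in PBC and 28.6% in PSC, against 9.94% and 14.7% of all genes tested, the background for each list below. An unadjusted p under 0.05 was found for 11 of the 21 in PBC, where edgeR called 2 higher and 0 lower and DESeq2 called 3 higher and 2 lower. The share of all genes at an unadjusted p under 0.05 is not given for comparisons with control. Such counts, here and below, therefore have no background to be read against. Slc51b, a subunit of the basolateral bile acid exporter of enterocytes and cholestatic hepatocytes, rose in PSC from 449 ± 243 (SD, n = 4) to 1181 ± 211 normalised reads (SD, n = 3; log2 1.54, SE 0.42, adjusted p = 0.0286). The Slc51b call ended without control 1 (adjusted p = 0.0638), control 2 (0.0624), PSC 11 (0.0697), PSC 13 (0.0705) or PSC 14 (0.125). The PBC value of Slc51b was 0.82 (adjusted p = 0.235), which passed without PBC 8 (1.29, 0.0456) and with quality weights (0.0136). Its partner subunit Slc51a was at most 8.46 normalised reads in any liver and was not tested. Atp8b1, the canalicular aminophospholipid flippase, fell by 1.18 on the log2 scale in PSC (SE 0.30, adjusted p = 0.0194), a call that ended without PSC 11 (0.0536) or PSC 14 (0.113). Abcg8, a subunit of the canalicular sterol exporter, rose in PBC (log2 0.80, adjusted p = 0.0272) and was lower in PSC than in PBC by 1.34 (adjusted p = 0.00669). The PBC call of Abcg8 ended without control 1 (0.0735), control 4 (0.052), PBC 7 (0.0697) or PBC 9 (0.124), with equal totals (0.0578) and with only the compared groups (0.0787).

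Slc10a5, an orphan relative of NTCP, fell by 1.77 on the log2 scale in PSC (adjusted p = 0.0108), a call that ended without PSC 14 (0.0697). The PBC value of Slc10a5 was -1.265 (adjusted p = 0.0597), which passed without PBC 8 (-1.85, 0.00234) and with quality weights (0.00169). The difference of Slc10a5 in PSC against PBC was -0.51 (adjusted p = 0.533). Slc22a18, an organic cation transporter-like gene, rose in PBC (log2 0.85, adjusted p = 0.0303) and PSC (0.84, adjusted p = 0.0256). The PBC call of Slc22a18 ended without control 3 (0.0534), PBC 7 (0.0985) or PBC 9 (0.145), with TMM scaling (0.0522), equal totals (0.0745) and only the compared groups (0.0813), and its PSC call without PSC 11 (0.0987), PSC 13 (0.0647) or PSC 14 (0.0913). Of 8 other Slco genes only 3 were tested. None of the 3 passed in limma, edgeR or DESeq2 against controls, with 0 in PBC and 1 in PSC at an unadjusted p under 0.05.

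Among 17 transcription factors of these genes, 16 were tested, with 1 higher in PBC and 1 higher and 3 lower in PSC. These shares, 6.25% and 25%, stand beside 9.94% and 14.7% of all genes. The PBC call, of the retinoic acid receptor gene Rara (log2 0.96, adjusted p = 0.0123), ended without PBC 9 (0.0562) and with equal totals (0.0651). Hnf4a, the hepatocyte factor upstream of several uptake carriers, fell by 0.91 on the log2 scale in PSC (SE 0.29, adjusted p = 0.0488). The Hnf4a call ended without control 1 (adjusted p = 0.0971), control 2 (0.112), control 4 (0.0793), PBC 9 (0.0557), PSC 11 (0.152), PSC 13 (0.0698) or PSC 14 (0.174), with edgeR (0.0591), no filter (0.064), TMM scaling (0.0511), equal totals (0.102) and a pseudocount of 0.5 (0.051). The PBC value of Hnf4a was -0.44 (adjusted p = 0.356), which passed without PBC 8 (-0.82, 0.0317) and with quality weights (0.035). Nr5a2, another bile acid pathway factor, fell by 1.16 in PSC (adjusted p = 0.037), and the change of Esr1, the estrogen receptor, was -2.02 (adjusted p = 0.00184). The Nr5a2 call ended without control 1 (0.0967), control 2 (0.0514), control 4 (0.0766), PSC 11 (0.0957), PSC 13 (0.052) or PSC 14 (0.175) and with equal totals (0.0825). Nfe2l2 rose by 0.64 in PSC (adjusted p = 0.041) and lost its call without control 1 (0.101), control 2 (0.0791), control 3 (0.0582), PBC 7 (0.0533), PSC 11 (0.184), PSC 13 (0.0719) or PSC 14 (0.0821), with no filter (0.0599), TMM scaling (0.0556) and equal totals (0.0975). The PSC log2 fold changes of the bile acid receptor Nr1h4, of its target Nr0b2 and of Nr1i3 were -0.23 (adjusted p = 0.483), 0.53 (0.357) and -0.69 (0.06), none of which passed. In PSC, Nr1i3 passed with TMM scaling (0.0487), DESeq2 (0.0319), quality weights (0.0217) and without PBC 8 (0.0451). The PSC value of Nr1i2 was -0.38 (adjusted p = 0.161), which passed with quality weights (-0.33, 0.0461). In PBC, Nr1h4, Nr0b2, Nr1i3 and Nr1i2 were at -0.35 (adjusted p = 0.291), 0.47 (0.453), -0.61 (0.11) and -0.43 (0.136), none of which passed.

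Called shares of the lists of receptor targets are given beside those of all genes, and no test compared the lists. In PBC, edgeR called 2 of 13 FXR targets, 3 of 14 CAR and PXR targets and 2 of 12 NRF2 targets, against 8.54% of all genes. Of 13 FXR targets tested, 15.4% were called in each model, where 9.94% of all genes were called in PBC and 14.7% in PSC. Fetub and Kng1 were called higher in PBC and Slc51b and Abcb4 in PSC, while Abcb11 and Nr0b2 were not. The Fetub call (log2 0.89, adjusted p = 0.0334) ended when any of control 1, control 3, PBC 7 and PBC 9 was left out (0.0695 to 0.162), or PSC 13 (0.0519) or PSC 14 (0.0513), and with no filter (0.0537), with a fit of the compared groups alone (0.0881) and under equal totals (0.0513). The Kng1 call (log2 0.93, adjusted p = 0.0381) ended without any 1 of the same livers, control 2 or PSC 11 (0.0534 to 0.162), with no filter (0.125) and with only the compared groups (0.0994). Cyp7a1, the rate-limiting enzyme of bile acid synthesis, was at 7093 ± 6200 normalised reads in controls (SD, n = 4) and 1723 ± 1472 in PSC (SD, n = 3), a difference of -1.96 on the log2 scale that did not pass (adjusted p = 0.0659). Cyp7a1 passed without control 3 (-2.50, adjusted p = 0.0193), without PSC 11 (-2.62, 0.0403) and with quality weights (-2.37, 0.000938). Of 14 CAR and PXR targets, 4 were higher in PBC (28.6% called), and 3 were higher and 2 lower in PSC (35.7%). Cyp2b10, the usual CAR reporter, rose by 4.08 in PBC (adjusted p = 0.000123) and was at 0.87 in PSC (adjusted p = 0.194), and PSC against PBC was -3.21 (adjusted p = 0.00318). Of 12 NRF2 targets tested, 3 were higher in PBC (25%) and 5 in PSC (41.7%). Gstm3 counts among the calls of both this list and that of CAR and PXR targets, in both models. The PBC call of Gstm3 (log2 0.71, adjusted p = 0.0499) ended with edgeR (0.0662), TMM scaling (0.0796), equal totals (0.14) and other settings. It also ended when any 1 library other than control 4 was left out (0.0517 to 0.182). The PSC call of Gstm3 (log2 0.97, adjusted p = 0.00892) ended without PSC 11 (0.0548). Gsta1 rose by 4.63 in PSC (adjusted p = 0.00122; 5.46 without control 4, 5.23 with quality weights, 3.81 with edgeR and 3.82 with DESeq2), whereas Nqo1 was at -0.07 (adjusted p = 0.875). Of 14 acute phase genes, 13 were higher in PBC and 10 in PSC. Of 15 sex-biased liver genes tested, 2 were higher and 9 lower in PSC, the latter including Hsd3b5. Of 13 genes of the canalicular scaffold, 7.69% were called in each model, under the share of all genes. Msn was called higher in PBC (log2 1.09, adjusted p = 0.0118, and 0.0675 with equal totals). Rdx, the radixin that anchors MRP2, was called lower in PSC (log2 -1.40, adjusted p = 0.0265). The Rdx call ended without any 1 of control 1, control 4, PSC 11, PSC 13 and PSC 14 (0.0563 to 0.106) and with equal totals (0.0583). The PBC value of Rdx was -0.91 (adjusted p = 0.142), which passed without PBC 8 (-1.40, 0.0122) and with quality weights (0.0053).

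Markers of some other liver cells were higher beside the transporter changes, with other counts in each model. Of 14 macrophage markers, 12 were called higher in PBC and 8 in PSC, and their summed normalised reads were 0.0544 to 0.0910 M in controls, 0.188 to 0.266 M in PBC and 0.144 to 0.182 M in PSC. Of 10 stellate cell and fibroblast markers, 4 were higher in PBC and 5 in PSC. Of 8 T cell markers, 7 were higher in PBC, and in PSC limma, edgeR and DESeq2 called 0, with 0 at an unadjusted p under 0.05. Of 7 neutrophil markers, 6 were higher in PBC and 2 in PSC. Of 11 endothelial markers, 2 were higher in PBC, while in PSC 2 were higher (Stab1 and Vwf) and 2 lower (Dnase1l3 and Kdr). Of 6 erythroid markers, none was called in PBC by limma, edgeR or DESeq2, with 1 at an unadjusted p under 0.05, and 1 was higher in PSC. Hepatocyte markers showed 0 calls in PSC by limma among 14 tested, with 2 at an unadjusted p under 0.05, 2 lower by edgeR and 3 lower by DESeq2. The summed hepatocyte markers of all PSC livers lay under those of all controls. Alb alone averaged 5.602e+06 normalised reads of that sum in controls and 3.398e+06 in PSC. The median log2 fold change of the 14 hepatocyte markers in PSC was -0.11, against 0.06 over all genes tested. Slco2b1 and Slco1b2 were lower in PSC beside these values, and Abcb4 and Abcc3 were higher. The part of cell composition in these changes was not tested.

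Across the 10 livers and 11911 genes compared, each transporter had a different set of nearest transcripts by Pearson's r of log2 values. Slco1a1 lay nearest to the steroid dehydrogenase gene Hsd3b5 (0.96), Serpina4-ps1 (0.94) and Serpina3k (0.91). Slco1a4 lay nearest to Akr1d1, the bile acid 5β-reductase (0.97), Tom1l1 (0.96) and Hpgd (0.96), and Slco1b2 to Scrn3, Dhdh and Acss3 (each 0.98). Nearest to Slco2b1 were Ell (0.98), Fads1 (0.97) and Cxcl12 (0.96), and nearest to Slc10a1 were Fzd8 (0.93), Gstt3 (0.92) and Mup12 (0.91). Among the exporters, Abcb11 lay nearest to Avpr1a (0.94), Bmp1 (0.94) and Arntl (0.92), Abcb4 to Pick1 (0.94), Ift81 (0.93) and Lama5 (0.93), and Abcc2 to Iqgap2 (0.97), Dock9 (0.97) and Eya3 (0.96). Abcc3 lay nearest to Chpf, Card9 and Vill (each 0.97), but with group means removed r was 0.71, 0.47 and 0.40. Abcc4 had an r of 0.95 with Zfp503, both over all livers and with group means removed. Control 4 and PBC 8 were far above the other livers in Abcc4, and r with Zfp503 was not computed without them. With the clock gene Tef, r of Abcc4 was 0.83 over all livers and 0.32 without control 4 and PBC 8. Between the transporters themselves, Slco1a4 and Slco1b2 were the most alike (0.93, and 0.88 with group means removed). Slco1a1 and Slco1a4, neighbours in the cluster, gave 0.17 over all livers and -0.87 with group means removed. Control 4 and PBC 8 were each the lowest of their group in Slco1a1 and the highest in Slco1a4, and r without them was not computed. All coefficients are descriptions over 10 livers that share 1 normalisation.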

How the data were processed

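The measurements are 10 bulk liver RNA libraries (4 control, 3 PBC, 3 PSC), prepared from polyadenylated RNA and sequenced as read pairs, per the labels' protocols. Per the submitters' processing notes, the authors aligned reads to mm10 with STAR 2.4.0 and used SAMtools, Picard, FastQC and DESeq2. The deposited signal is reads per gene model after DESeq2 normalisation, per the file headers. How reads were counted, with or without strand and for reads shared by genes, is not given in the sources used here. No replicate numbers are shared between groups. Within each library all values up to 1000 reads were whole multiples of 1 step (100% within a tolerance of 0.1), so whole reads were recovered by division. On average 573 models had 1 read and 2263 had 2. Whether both reads of a pair were counted is not given and was not tested. The stated depths and the reads given to edgeR and DESeq2 may therefore count a pair as 2.

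Genes with at least 10 normalised reads in at least 3 libraries were tested with limma 3.58.1 (R 4.3.3, intensity trend, two-sided) on log2(value + 1), with all 10 libraries in 1 fit and Benjamini-Hochberg adjustment. The labels number the mice, so p-values rest on variation between animals. Fold changes on this scale understate changes of low genes. Alternatives were edgeR 4.0.16 and DESeq2 1.42.0 on recovered reads, other pseudocounts, filters and scalings, library weights, only the compared groups, and leaving out each library. The limma step was tested on simulated data. Levels per kb use exon lengths of GENCODE M21, and promoter windows are from RefSeq.

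The 10 transporters, the gene lists and the tests were chosen with earlier results of these data known. Named are all 10, a fixed set of related genes, up to 4 called genes of smallest adjusted p per list and comparison, and the 3 nearest genes of each transporter with a mean of at least 50. The clock genes, Hsd3b5 as a list gene and Nr0b2, Abcb11 and Abcb4 among FXR targets were named beside these.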

Additional observations from a re-analysis of the deposited data

Results flagged for a closer look

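Control 4 was far from the other 3 controls in 2 of the 10 transporters, by Dixon's ratio of the gap to the nearest liver over the range of the group against its 95% critical value for 4 samples. For Slco1a1, control 4 was the lowest with a ratio of 0.893 on the log2 scale, and its ratio of 0.667 in normalised reads was under the critical value. For Abcc4, control 4 was the highest with a ratio of 0.882 on the log2 scale and 0.94 in normalised reads. Chance marks about 1 group in 20 in this way, and 10 genes were examined on 2 scales. The same liver was outside all other 9 livers in 11 of 16 clock genes, and the part of the clock in the Slco1a1 and Abcc4 values was not tested.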

How the results depend on the processing

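Over 20 alternative settings, 551 of 600 recomputed transporter values kept their side of the threshold, 33 lost a call and 16 gained one. No value called in the main fit or in the alternative changed direction. Directions of values called in neither were not counted, and some changed. Abcc4 in PSC against control went from -0.42 to 0.04 without control 4. In PBC against control, 2 transporters and 1828 genes were called. There were 1 and 1218 with equal totals, 1 and 841 with only the compared groups and 4 and 4228 with library quality weights. No filter gave 1 transporter, edgeR 1 and DESeq2 3. Leaving out 1 library gave 1 to 3 transporters and 736 to 3364 genes. The 3364 genes were those without PBC 8, where genes called lower went from 430 to 1569. PBC 8 also had the lowest quality weight of the 10 libraries (0.289). In PSC against control, 6 and 2710.0 were called, with 7303 genes under quality weights and 1 to 7 transporters and 925 to 3813 genes when 1 library was left out. In PSC against PBC, 0 and 412 were called. There were 1 and 1213 with DESeq2, 3 and 1359 with quality weights, and 0 transporters and 104 to 563 genes with 1 library left out. With equal totals the median log2 fold change of all genes in PBC against control moved from 0.01 to -0.12, and the PSC against PBC calls from 208 higher and 204 lower to 228 and 128. Per kb of coding sequence in place of exons, Slco1a4 moved from rank 6 to 5 in controls, Slco2b1 from 9 to 6 and Abcc3 from 5 to 9, and in PSC livers Slco1a1 moved from 10 to 9. The cause of these shifts was not tested, except that leaving out a library tests fewer samples. No paired analysis was possible because the groups share no replicate numbers. With 3 or 4 livers per group, intervals of most transporters span changes that these data cannot detect.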
